A study of Mus musculus with 16 samples.

Results

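Trimethylation of lysine 27 of histone H3 (H3K27me3) was mapped by chromatin immunoprecipitation followed by sequencing (ChIP-seq) in wild type and in PCGF5-depleted mouse embryonic stem cells (mESCs), and the 2 resulting peak lists were compared. A peak is a region in which the authors' caller found more sequenced fragments than in the background. The wild type list held 11808 peaks and the PCGF5-depleted list 10234, together 22042 of the 86279 peaks deposited for the study. A wild type peak was counted as kept when a PCGF5-depleted peak overlapped it by at least 1 bp and as lost otherwise, and a PCGF5-depleted peak without a wild type counterpart was counted as gained. A gene was counted as marked when the centre of a peak was no more than 2500 bp away from the start of any of its protein-coding transcripts, and 3739 of 22232 protein-coding genes were marked in at least 1 list.

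Both populations came from the 46C line, an mESC line with a green fluorescent reporter in the Sox1 locus that serves to follow neural fate. They were grown on mitomycin C-inactivated mouse embryo fibroblast feeders with leukemia inhibitory factor and the inhibitors CHIR99021 and PD0325901. The depleted cells carry the label shPCGF5, for a short hairpin RNA against Pcgf5. The study describes hairpin lines picked as clonal clusters as well as a nuclease knockout, so which of these gave the library, and whether it was a single clone, is uncertain. Chromatin was digested with micrococcal nuclease, lightly fixed with formaldehyde and immunoprecipitated with the same antibody in both. Each group had 1 library, so there was no replicate error and no test of the genotypes, and the 95% Wilson intervals given with shares cover counting error only. Read totals are not part of the files, so sequencing depth is unknown. The study's own summary lists fewer unique fragments for the PCGF5-depleted library than for the wild type library, and the part of this in the results was not tested.

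H3K27me3 is written by Polycomb repressive complex 2 (PRC2) and marks genes that are held silent, in mESCs above all the regulators of later lineages. PCGF5 is a subunit of a variant form of Polycomb repressive complex 1 (PRC1), the complex that attaches a single ubiquitin to histone H2A, which gives the mark H2AK119ub1. The marks are linked, since variant PRC1 can bring PRC2 to chromatin, and both are known for their preference for CpG-rich start sites.

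To show the kind of sequence behind kept and gained peaks, 300 bases about the centre of wide promoter peaks at genes of the lists used here are given, 2 for each. They were taken by width and are not typical in CpG, since the gained examples had ratios of observed to expected CpG of 0.646 and 0.510, against a median of 0.377 for gained promoter peaks. They are the forward strand of the NCBIM37 assembly (mm9), in lower case with each CpG dinucleotide in capitals. The kept examples lay in an intron of Tlx3 (chr11:33102045-33102344), a homeobox gene of sensory neurons, and in the coding exon of Adra2a (chr19:54120809-54121108), an adrenergic receptor. They held 14 and 16 CpG.
Tlx3, kept: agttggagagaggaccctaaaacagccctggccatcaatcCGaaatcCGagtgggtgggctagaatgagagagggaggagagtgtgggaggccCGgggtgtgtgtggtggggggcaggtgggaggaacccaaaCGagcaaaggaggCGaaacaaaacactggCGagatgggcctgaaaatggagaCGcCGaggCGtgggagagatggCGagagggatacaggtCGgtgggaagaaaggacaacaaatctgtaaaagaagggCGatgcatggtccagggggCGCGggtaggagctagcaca
Adra2a, kept: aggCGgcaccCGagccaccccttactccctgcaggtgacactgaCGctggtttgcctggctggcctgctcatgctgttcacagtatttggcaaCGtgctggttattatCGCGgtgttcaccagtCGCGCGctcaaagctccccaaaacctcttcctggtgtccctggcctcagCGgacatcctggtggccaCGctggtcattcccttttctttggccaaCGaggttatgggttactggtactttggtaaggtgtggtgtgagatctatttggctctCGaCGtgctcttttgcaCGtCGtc
The gained examples lay in an intron of Phf19 (chr2:34768802-34769101), a PRC2 partner, with 20 CpG, and over the start and first coding exon of Cacng8 (chr7:3394540-3394839), an auxiliary subunit of glutamate receptors, with 13 CpG.
Phf19, gained: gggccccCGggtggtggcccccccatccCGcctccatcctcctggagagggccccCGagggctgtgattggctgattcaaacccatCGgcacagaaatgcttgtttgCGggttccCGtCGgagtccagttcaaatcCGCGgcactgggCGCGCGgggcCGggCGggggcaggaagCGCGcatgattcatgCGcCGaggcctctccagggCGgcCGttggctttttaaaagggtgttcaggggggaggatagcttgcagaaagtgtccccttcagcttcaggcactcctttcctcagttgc
Cacng8, gained: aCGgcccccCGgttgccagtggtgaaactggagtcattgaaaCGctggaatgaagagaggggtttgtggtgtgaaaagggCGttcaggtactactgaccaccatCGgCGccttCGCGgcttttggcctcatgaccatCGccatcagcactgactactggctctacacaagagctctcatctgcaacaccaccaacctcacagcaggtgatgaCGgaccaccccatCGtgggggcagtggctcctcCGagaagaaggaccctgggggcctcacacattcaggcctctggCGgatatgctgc

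Wide peaks were mostly found in both lists, while most narrow peaks of either list had no counterpart in the other. Any overlap counted a peak as kept, so a wide peak could meet the rule more easily through its width alone. The part of this rule in the width differences was not tested. Of the wild type peaks 4149 were kept (35.1%) and 7659 lost (64.9%, 64.0 to 65.7), and of the PCGF5-depleted peaks 4256 were kept (41.6%, 40.6 to 42.5) and 5978 gained. Kept wild type peaks had a median width of 386 bp and lost ones of 233 bp. Among peaks over 1000 bp wide, 397 were kept and 51 lost. In the PCGF5-depleted list the median width was 369 bp for kept and 267 bp for gained peaks, with 207 kept and 16 gained peaks over 1000 bp. The lower limit of the width differed between the lists. The narrowest peak was 152 bp in the wild type list, a width shared by 790 peaks, and 201 bp in the PCGF5-depleted list, shared by 1193. Widths and covered lengths set side by side between the lists carry this difference in the lower limit.

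The stronger a peak was within its own list, the more often it was found in the other. Of the lowest-scoring 10% of wild type peaks 17.2% were kept, and of the highest-scoring 10% 72.4%. In the PCGF5-depleted list the shares were 24.1% and 74.8%. Even among the strongest peaks some therefore had no counterpart by direct overlap. Many unmatched peaks lay close to a peak of the other list. A PCGF5-depleted peak lay within 1000 bp of 2248 lost peaks (29.4%), and a wild type peak within 1000 bp of 2103 gained peaks (35.2%). Beyond 5000 bp of any peak of the other list lay 4089 lost peaks (53.4%) and 2724 gained peaks (45.6%). Among 3350 pairs in which a wild type peak matched a single PCGF5-depleted peak and the reverse, 1655 were wider in wild type and 1691 wider in PCGF5-depleted cells.

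**Figure D1:**
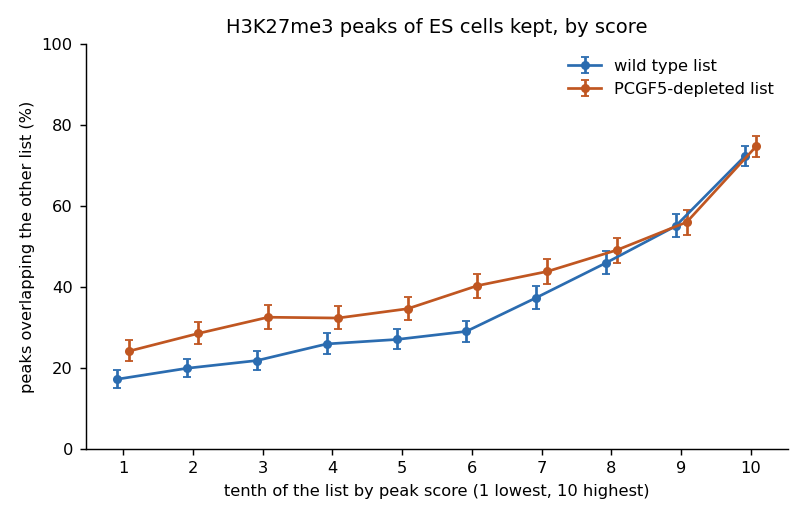
Share of H3K27me3 peaks overlapped by the other genotype (y axis, %) for each 10% of a list ranked by peak score (x axis), with 95% Wilson intervals, for the wild type and the PCGF5-depleted list. The share climbs from 17.2% to 72.4% in the wild type list and from 24.1% to 74.8% in the PCGF5-depleted list.

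Kept peaks lay at promoters more often than lost peaks. Of the kept wild type peaks 55.5% (54.0 to 57.0) had the centre within 2500 bp of a start site, against 37.8% of the lost peaks (36.7 to 38.9), a difference of 17.7 percentage points (15.9 to 19.6). Among the stronger 50% of peaks by score this difference was 3.96 percentage points, and it was 9.42 when at least 50% of a peak had to be overlapped. Of the gained peaks 42.3% (41.1 to 43.6) were at promoters.

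Lost and gained promoter peaks differed in sequence and in position. CpG content is given as the ratio of observed to expected CpG, for which the median over all start sites was 0.579. Promoter peaks had a median ratio of 0.681 when kept, 0.528 when lost and 0.377 when gained. The lower ratio of gained than of lost promoter peaks was also found among the stronger 50% of peaks (0.388 against 0.613), in peaks with no peak of the other list within 5000 bp (0.415 against 0.546) and in peaks centred within 500 bp of a start site (0.564 against 0.685), which were alternatives chosen after the data were seen. Within 500 bp of a start site lay 48.4% of the kept, 44.4% of the lost and 30.7% of the gained promoter peaks, and the median distance was 522, 598 and 864 bp. The start sites of the genes themselves did not show this order. For each gene the highest ratio among its start sites was taken, so these values are not comparable with the 0.579 above. The median was 0.777 for genes marked in both lists and 0.620 for genes marked in neither. It was 0.661 for genes marked in wild type alone and 0.699 for genes marked in PCGF5-depleted cells alone.

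**Figure D2:**
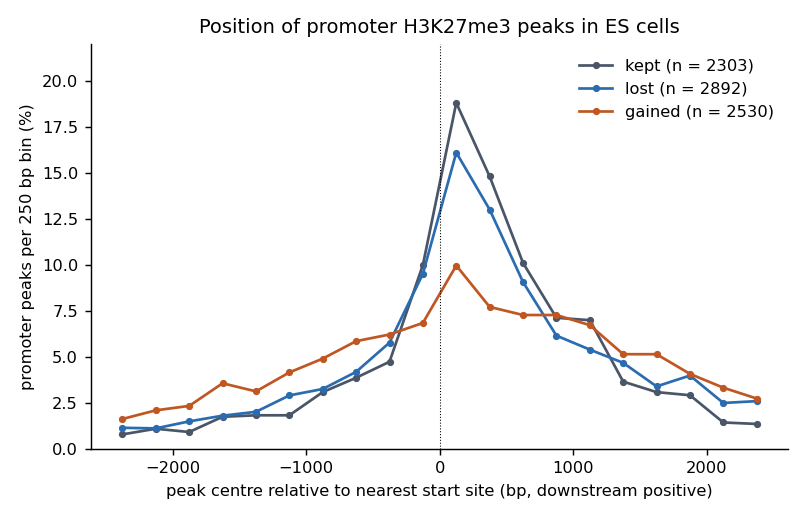
Position of promoter H3K27me3 peaks relative to the nearest start site (x axis, bp, downstream positive) as the share of promoter peaks per 250 bp (y axis, %), for 2303 kept wild type, 2892 lost and 2530 gained peaks. In the bin just downstream of the start lie 18.8% of the kept, 16.1% of the lost and 9.96% of the gained peaks, and the gained peaks spread farther to both sides.

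By gene the lists shared more than by peak. Of all protein-coding genes 13.4% (2976) were marked in wild type and 12.9% (2872) in PCGF5-depleted mESCs. Marked in both were 2109 genes (9.49% of all), which were 70.9% of the genes marked in wild type and 73.4% of those marked in PCGF5-depleted cells. In wild type alone 867 genes (3.90%) were marked and in PCGF5-depleted cells alone 763 (3.43%). When the wild type list was shortened to the length of the other by score, the order of the last counts was the opposite, at 750 and 853 (equal lists in what follows). Of the 2892 lost promoter peaks, 1836 (63.5%) were at genes that stayed marked through another peak, as were 1638 of 2530 gained promoter peaks (64.7%). Genes marked in both had a median of 734 bases under wild type peaks and 641 under PCGF5-depleted peaks within 2500 bp of their start sites, a measure called covered length in what follows. Genes marked in wild type alone had a median of 303 bases and those marked in PCGF5-depleted cells alone 300 bases. The genes marked in only 1 list mostly rested on a single peak, in 78.5% of cases in wild type and 80.6% in PCGF5-depleted cells. Of the 867 wild type genes 795 had no base of a PCGF5-depleted peak within 5000 bp, and of the 763 PCGF5-depleted genes 704 had no base of a wild type peak.

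The 10 genes with the longest covered length in both lists included regulators of the nervous system and of the limbs. Pax6, a master regulator of eye and forebrain (chromosome 2, start 105509053), had 12 peaks over 4350 bases in wild type and 12 over 5035 in PCGF5-depleted cells. Lmx1b, a LIM homeobox gene of midbrain and limb, had 4952 and 3401 bases. Hoxd3, of the Hox genes that set position along the body axis, had 3811 and 3578. All 3 stayed covered over several kilobases, as did the gene of the skin barrier protein Flg, with 5775 and 5629 bases, which is built of repeats that short reads place poorly. Rbfox3, which encodes the neuronal splicing factor known as NeuN, had 5779 bases in wild type and 1541 in PCGF5-depleted cells. Pcdha11, of the clustered protocadherins, had 6849 and 2446, and the homeobox gene Nkx1-1 had 4967 and 2160. In these 3 the mark was present in both lists over a shorter length in PCGF5-depleted cells. The opposite was found at Nrxn2, a presynaptic adhesion gene, with 3338 bases in wild type and 3939 in PCGF5-depleted cells. Ahnak2 had 6050 and 4869. In all, 7 of the 10 were covered more in wild type and 3 more in PCGF5-depleted cells. All 10 also had H2AK119ub1 in wild type mESCs, and 9 of them in PCGF5-depleted mESCs, where Pcdha11 had none.

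The 12 genes with the longest covered length in wild type alone and no PCGF5-depleted peak within 5000 bp had 1320 to 1811 bases. The longest was Ppl, the cytoskeletal linker periplakin (chromosome 16, start 5132574), with 3 peaks over 1811 bases. Kcnj11, the pore subunit of the ATP-sensitive potassium channel, had 4 peaks over 1772 bases, and Dlgap1, a scaffold of the postsynaptic density, 2 peaks over 1721 bases. Dio3, an imprinted gene for the deiodinase that inactivates thyroid hormone, had 5 peaks over 1684 bases. Neural signalling was represented further by the dopamine receptor gene Drd5, with 3 peaks over 1440 bases. Wnt4, a signalling ligand of kidney and gonad development, had 3 peaks over 1320 bases with the second highest fold of the 12, at 6.42, after Dlgap1 at 6.69. The remaining genes were Hdgfrp3, Gm11595, Car11, 4922505E12Rik, the transcription factor gene Batf3, and Cldn26. Of the 12, 9 had H2AK119ub1 in wild type mESCs and 5 in PCGF5-depleted mESCs, against 6.69% and 5.96% of all genes. Ppl, Drd5, Car11 and 4922505E12Rik had both marks in wild type and neither in PCGF5-depleted mESCs. In neural precursor cells (NPC) made from these mESCs, 10 of the 12 had H3K27me3 in wild type and 11 in PCGF5-depleted cells. The NPC shares were 15.7% and 15.5% of all genes, and 47.5% and 48.8% of the genes marked in wild type alone.

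The corresponding 12 genes of the PCGF5-depleted list had 1334 to 1882 bases. Bcl6b, a transcriptional repressor (chromosome 11, start 70043241), had 3 peaks over 1882 bases at a fold of up to 7.38. Phf19, which encodes a PRC2-associated protein that reads histone H3 (chromosome 2, start 34769496), had 3 peaks over 1554 bases, the widest of which is printed above. Ltbr, the lymphotoxin receptor, had 3 peaks over 1524 bases. Syngr3, a synaptic vesicle gene, had 3 peaks over 1452 bases, and Esam, an adhesion gene of endothelial cells, 3 over 1403. Scube2, a secreted factor that helps release Hedgehog ligands, had 2 peaks over 1367 bases. The others were Lrrc23, Trim17, Abhd8, Pacsin3, Arhgef19 and Cachd1. With start sites required within 1000 bp of the peak centre, Trim17 and Abhd8 were no longer marked, and Lrrc23 was not marked by the stronger 50% of peaks. Of the 12, 2 had H2AK119ub1 in wild type and 3 in PCGF5-depleted mESCs. Fewer of these genes than of the 12 wild type genes thus carried that mark in either list. Among all genes marked in PCGF5-depleted cells alone the shares with H2AK119ub1 were 9.96% and 14.2%. H3K27me3 was listed in NPC at 8 of the 12 in wild type and at 10 in PCGF5-depleted cells. For all genes marked in PCGF5-depleted mESCs alone the NPC shares were 42.2% and 49.8%.

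**Figure D3:**
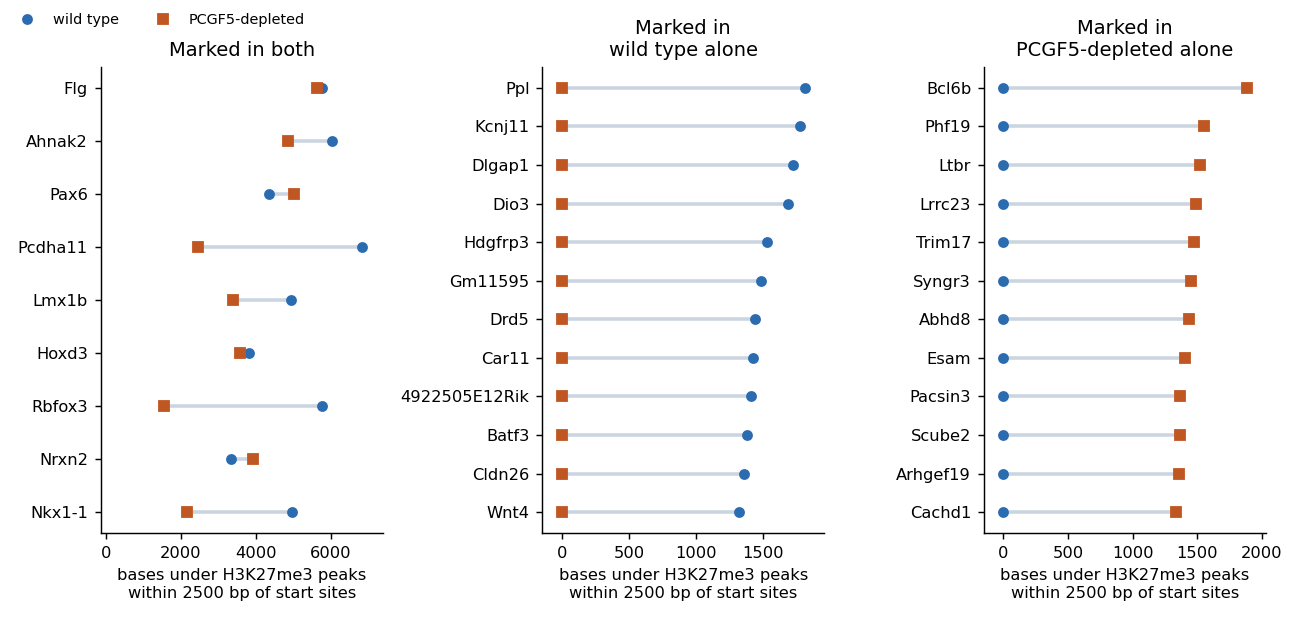
Bases under H3K27me3 peaks within 2500 bp of the start sites (x axis) in wild type (circles) and PCGF5-depleted mESCs (squares), for 9 of the genes covered most in both lists and the 12 covered most in each list alone. Genes of 1 list reach 1811 bases in wild type and 1882 in PCGF5-depleted cells, while Pcdha11 and Rbfox3, marked in both, span the widest gaps.

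Homeobox transcription factors, the best known targets of Polycomb in mESCs, were mostly marked in both lists. Of 138 genes in the homeobox and Pax lists 113 (81.9%) were marked in both, 7 in wild type alone, 5 in PCGF5-depleted cells alone and 13 in neither. Over all 22232 genes the share marked in both was 9.49%. Of the 39 Hox genes 33 were marked in both, Hoxa2 in wild type alone and 3 in PCGF5-depleted cells alone, among them Hoxb13 and Hoxc4. Hoxa2, a hindbrain gene, had 641 bases in wild type, and Hoxc4 had 679 bases in PCGF5-depleted cells. Within 5000 bp of the start sites the other list covered 357 bases at Hoxa2 and 152 at Hoxc4. All 12 LIM homeobox genes were marked in wild type and 11 in PCGF5-depleted cells, the exception being Lhx8, with 545 bases in wild type. Of the 14 Nkx genes 12 were marked in both and none in a single list. Of 14 Dlx, Msx and Barx genes 13 were marked in both, and Msx2 in PCGF5-depleted cells alone. Of 26 brain patterning genes 22 were marked in both and 1 in wild type alone. Of 9 Pax genes 6 were marked in both, while Pax1, a gene of the vertebral column with 3 peaks over 1162 bases, and Pax8, a thyroid and kidney gene with 254 bases, were marked in wild type alone.

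The other families of transcription factors ranged from mostly marked in both lists to mostly unmarked. Of 18 Sox genes 12 were marked in both and the remaining 6 in neither. Of 22 GATA and T-box genes 14 were marked in both, with Gata2, a blood regulator, at 3804 bases in wild type and 2700 in PCGF5-depleted cells. Of 37 bHLH genes 23 were marked in both. Atoh1, Neurod1 and Tcf21 were marked in wild type alone, with 217 to 448 bases, and Atoh7 and Scx in PCGF5-depleted cells alone. Within 5000 bp of the start sites PCGF5-depleted peaks covered 201 bases at Atoh1 and 239 at Neurod1. Of 43 forkhead genes 21 were marked in both, 4 in wild type alone (Foxd3, Foxo6, Foxp2 and Foxi1) and 2 in PCGF5-depleted cells alone (Foxj2 and Foxa3). Nuclear receptors, which are transcription factors switched by hormones and lipids, had 15 of 47 marked in both, 2 in wild type alone and 6 in PCGF5-depleted cells alone, or 2 and 3 among the stronger 50% of peaks and 3 and 4 with a window of 1000 bp. The 6 included Rorb with 600 bases and the retinoic acid receptor gene Rarb with 212. In the remaining lists of transcription factors, 9 of 12 Irx genes and relatives of Six5, 8 of 13 POU genes other than Pou5f1 and 6 of 28 Zic, Gli and Klf genes were marked in both. Six5 was marked in wild type alone, and Irx6, Glis3 and Zic2 in PCGF5-depleted cells alone. Within 5000 bp of the start sites wild type peaks covered 381 bases at Irx6 and 218 at Zic2. Zinc finger genes named Zfp, many of which silence repeats, had 14 of 361 marked in both, 8 in wild type alone and 11 in PCGF5-depleted cells alone, with Zfp64 at 1221 bases.

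**Figure D4:**
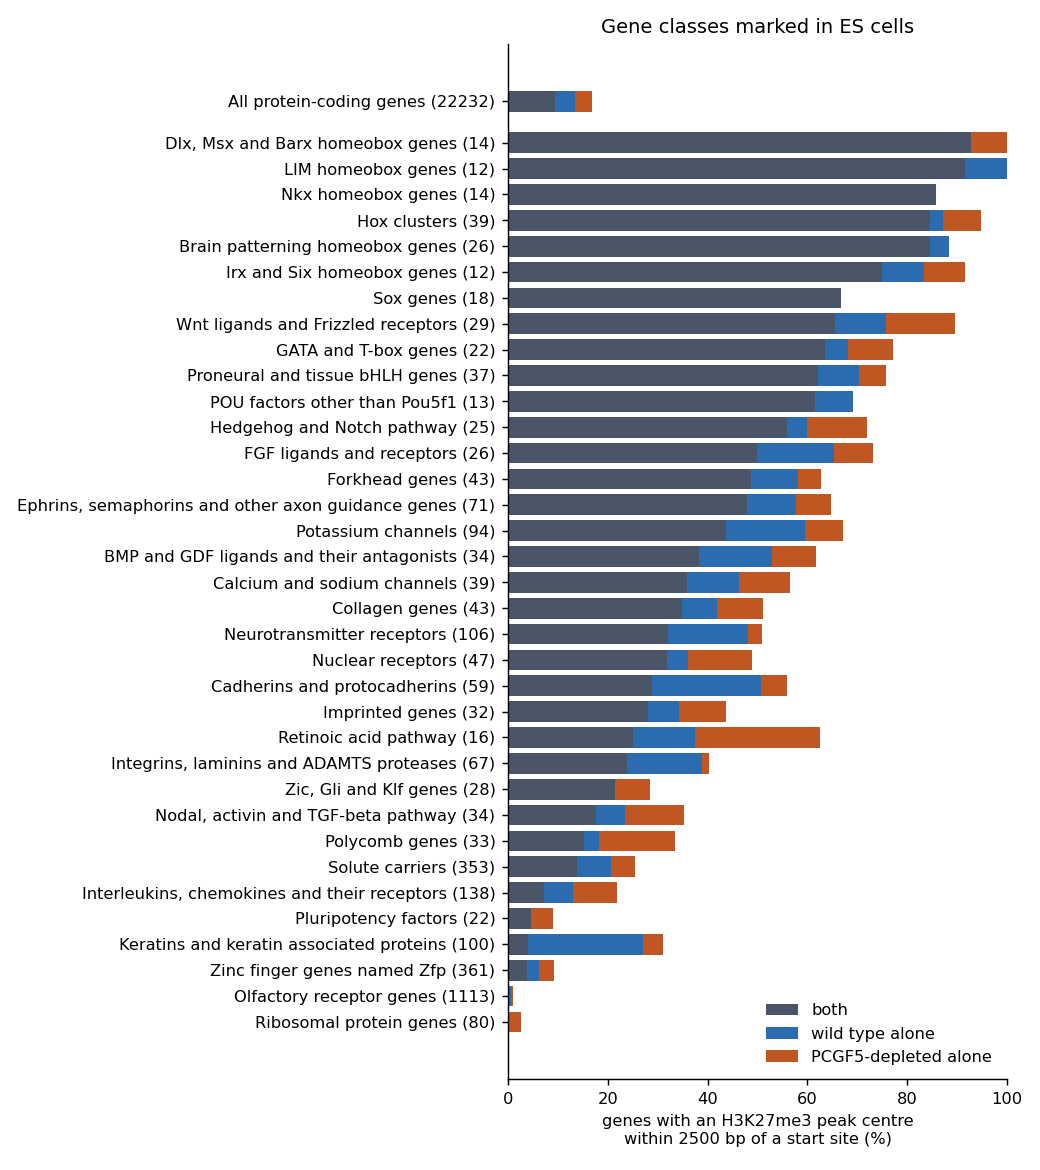
Share of genes with an H3K27me3 peak centre within 2500 bp of a start site (x axis, %) in both lists, in wild type alone and in PCGF5-depleted mESCs alone, for gene lists of 12 or more genes (number of genes in parentheses) and for all genes. Among homeobox lists the share marked in both runs from 61.5% of POU factors to 92.9% of Dlx, Msx and Barx genes, while keratin genes are the only list in which genes marked in wild type alone make up most of the bar other than the olfactory receptors, where 7 of 1113 genes do.

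Signalling genes were marked in a single list more often than transcription factors. Of the 164 genes in these lists 69 (42.1%) were marked in both. In wild type alone 17 (10.4%) were marked and in PCGF5-depleted cells alone 20 (12.2%). For the 333 transcription factor genes, without the Zfp list, the shares in a single list were 5.11% and 5.71%. For all genes they were 3.90% and 3.43%. Of 29 Wnt ligands and Frizzled receptors 19 were marked in both. Wnt4, Wnt2 and the receptor gene Fzd4 were marked in wild type alone, and Wnt16, Wnt8b and the receptor genes Fzd2 and Fzd7 in PCGF5-depleted cells alone. Of 34 BMP and GDF ligands and antagonists 13 were marked in both, 5 in wild type alone and 3 in PCGF5-depleted cells alone. Among the ligands, Bmp2 had 3 peaks over 656 bases and Bmp3 2 peaks over 746 bases in wild type alone. Among the antagonists, Chrdl2 had 3 peaks over 1078 bases and Grem1 3 peaks over 564 bases, again in wild type alone. Of these 5 wild type genes, 4 had H3K27me3 in wild type NPC and 5 in PCGF5-depleted NPC. Of all genes marked in wild type alone 47.5% and 48.8% did.

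Of 26 FGF ligands and receptors 13 were marked in both, 4 in wild type alone and 2 in PCGF5-depleted cells alone. Fgf2, a growth factor of neural progenitors, had 629 bases in wild type alone, and the receptor gene Fgfr1 had 320 in PCGF5-depleted cells alone. Of 25 Hedgehog and Notch genes 14 were marked in both. The Notch target Hey2 was marked in wild type alone with 807 bases. A PCGF5-depleted peak centred farther away still covered 47 bases within 2500 bp of its start sites. The ligand gene Jag1, the receptor gene Notch1 and the target Hey1 were marked in PCGF5-depleted cells alone, with 229 to 579 bases. Interleukins, chemokines and their receptors had 10 of 138 marked in both, 8 in wild type alone and 12 in PCGF5-depleted cells alone, among the latter Il17rc with 562 bases and Il17ra with 457.

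The study examined the Nodal branch of TGF-beta signalling, in which Nodal is the ligand and Lefty1 and Lefty2 are secreted inhibitors. In mESCs Nodal and Lefty2 had no H3K27me3 peak centre within 2500 bp of a start site in either list. Lefty1 had none in wild type and 1 peak of 201 bases, the narrowest width in that list, in PCGF5-depleted cells. Of the 34 genes of the Nodal, activin and TGF-beta list 6 were marked in both, Smad9 and Inhba in wild type alone, and Lefty1, Tgfb2, Tgfb3 and the receptor gene Tgfbr1 in PCGF5-depleted cells alone. Smad9, a transducer of BMP signals, had a peak of 990 bases in wild type, and the 4 PCGF5-depleted genes had 201 to 264 bases. Among retinoic acid genes, 4 of 16 were marked in both. Aldh1a2, which makes retinoic acid, had 1031 bases in wild type alone, and Cyp26c1, which degrades it, 423 bases. The binding protein gene Crabp2, the enzyme gene Aldh1a3 and the receptor genes Rarb and Rarg were marked in PCGF5-depleted cells alone.

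Genes of the cell surface and of the extracellular matrix were more often marked in wild type alone than in PCGF5-depleted cells alone. Of 722 cell surface genes 189 (26.2%) were marked in both, 80 (11.1%) in wild type alone and 39 (5.40%) in PCGF5-depleted cells alone, against 3.90% and 3.43% of all genes for the latter classes. For 110 matrix genes the counts were 31, 13 and 5. Neurotransmitter receptors had 34 of 106 marked in both, 17 in wild type alone and 3 in PCGF5-depleted cells alone. The 17 included Drd5, the GABA receptor gene Gabra2 with 675 bases, the serotonin receptor gene Htr1a with 669 and the AMPA receptor gene Gria2 with 511. The 3 were Htr3a, Drd2 and Htr2a, with 274 to 412 bases. Of the 17, 15 had H3K27me3 in wild type NPC and 13 in PCGF5-depleted NPC, against 47.5% and 48.8% of all genes marked in wild type alone. With equal lists the counts were 16 and 4.

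Cadherins and protocadherins, adhesion proteins that sort neurons, had 17 of 59 marked in both, 13 in wild type alone and 3 in PCGF5-depleted cells alone. Many of the 13 were of the protocadherin beta cluster, such as Pcdhb12 with 668 bases, Pcdhb19 with 635 and Pcdhb18 with 605, whose sequences are close copies of each other. With start sites within 1000 bp of the peak centre the difference between the lists was 2 genes, and among the stronger 50% of peaks it was 6. Integrins, laminins and ADAMTS proteases had 16 of 67 marked in both, 10 in wild type alone and Adamts14 in PCGF5-depleted cells alone. First among the 10 was Itga9 with 660 bases, where PCGF5-depleted peaks covered 201 bases within 5000 bp. Collagens had 15 of 43 marked in both, with Col23a1, Col11a2 and Col13a1 in wild type alone and Col1a1, Col12a1, Col1a2 and Col6a6 in PCGF5-depleted cells alone. Potassium channels had 41 of 94 marked in both, 15 in wild type alone and 7 in PCGF5-depleted cells alone. Kcnc2, Kcnk2 and Kcnd2 had 840 to 953 bases in wild type alone, and Kcnk4 had 1319 and Kcnh4 944 bases in PCGF5-depleted cells alone. With equal lists the potassium channel counts were 12 and 11. Calcium and sodium channels had 4 genes of 39 in each list alone. Of 71 axon guidance genes 34 were marked in both, 7 in wild type alone and 5 in PCGF5-depleted cells alone. Solute carriers had 24 of 353 in wild type alone and 17 in PCGF5-depleted cells alone, and 20 and 19 with equal lists.

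Keratins and keratin associated proteins, which build epithelia and hair, differed more between the genotypes than any other list by the number of genes in a single list, although neurotransmitter receptors (20 and 7) and solute carriers (24 and 13) differed more among the stronger 50% of peaks. Of 100 genes 4 were marked in both, 23 in wild type alone and 4 in PCGF5-depleted cells alone, against a share of 3.90% of all genes in wild type alone. The 23 genes rested on 27 peaks, and all lay in the keratin clusters of chromosomes 11 and 15. Along the chromosome 11 cluster (chr11:99105381-100131185) the wild type list held 29 peaks over 9.82 kb and the PCGF5-depleted list 3 peaks over 0.704 kb. Along the chromosome 15 cluster (chr15:101198144-101858647) it held 30 peaks over 7.78 kb, against 9 peaks over 2.79 kb. The difference thus extended over both clusters, which were singled out after their values were seen. The wild type peaks were moderate, with a median fold of 4.35 and 4.30, near the 4.19 of all lost peaks. Krt82, a hair keratin gene, had 3 peaks over 924 bases in wild type, and Krt1, of the upper epidermis, 2 peaks over 566. Within 5000 bp of the Krt1 start sites PCGF5-depleted peaks covered 451 bases. H2AK119ub1 had 6 peaks in wild type and 3 in PCGF5-depleted mESCs along the chromosome 11 cluster, and 23 and 13 along that of chromosome 15. In NPC none of the 23 genes had H3K27me3 in either list, against 47.5% and 48.8% of all genes marked in wild type alone. Of the 12 genes of wild type alone with the longest covered length, Gm11595 lay in the chromosome 11 cluster. With equal lists 21 keratin genes were marked in wild type alone and 4 in PCGF5-depleted cells alone, and among the stronger 50% of peaks 11 and 1. Many of these genes are close copies, among which short reads can be placed wrongly.

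Pluripotency factors and ribosomal protein genes, which are active in mESCs, were rarely marked in either list. Their shares marked in PCGF5-depleted cells alone, 4.55% and 2.50%, were near the 3.43% of all genes. Polycomb genes, also grouped as expressed in mESCs, had 15.2% in PCGF5-depleted cells alone and 3.03% in wild type alone. For all 135 genes grouped in this way the shares were 5.93% and 0.741%. Of 22 pluripotency factors Esrrb was marked in both, with 1340 bases in wild type and 1652 in PCGF5-depleted cells, and Lin28a had a peak of 206 bases in PCGF5-depleted cells alone. The core factors Pou5f1, Nanog and Sox2 were marked in neither. Of 80 ribosomal protein genes Rpl8, with 770 bases, and Rps2, with 211, were marked in PCGF5-depleted cells alone, and none in wild type. Both peaks had folds below the median of gained peaks, at 3.60 and 3.42 against 4.75. Of 32 imprinted genes, which are expressed from a single parental copy, 9 were marked in both, Dio3 and Nnat in wild type alone, and Ndn, Igf2r and Slc22a18 in PCGF5-depleted cells alone. Grb10, an imprinted growth inhibitor, had 4980 bases in wild type and 260 in PCGF5-depleted cells. Of 1113 olfactory receptor genes none was marked in both, 7 were marked in wild type alone and 3 in PCGF5-depleted cells alone.

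Among 33 genes for Polycomb proteins 5 were marked in both, 1 in wild type alone and 5 in PCGF5-depleted cells alone. The shares in a single list were 3.03% in wild type and 15.2% in PCGF5-depleted cells, against 3.90% and 3.43% of all genes. Among those marked in both were Cbx8, Kdm2b, Auts2 and Yaf2, subunits or partners of PRC1. Cbx8 had 844 bases in wild type and 1170 in PCGF5-depleted cells. Those of PCGF5-depleted cells alone were Phf19, Bcor with 494 bases, Bmi1 with 363, Cbx2 with 262 and Bcorl1 with 215, of which Bmi1 and Cbx2 are subunits of canonical PRC1. Pcgf5 itself had 2 peaks over 382 bases in wild type and none in PCGF5-depleted cells. A promoter peak is no measure of the depletion, and no other file of these libraries measured it. Among the stronger 50% of peaks the counts for Polycomb genes were 3 in each list alone, and on chromosomes 1 to 19 the difference was 2 genes, since Bcor and Bcorl1 lie on the X chromosome.

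Neural genes that the study examined differed in both directions. Pou3f2, a neural POU factor, was covered over 901 bases in wild type and 1657 in PCGF5-depleted cells. Nes, which encodes the neural progenitor filament nestin, had no peak in wild type and 2 peaks over 822 bases in PCGF5-depleted cells, while Cdh2, or N-cadherin, had a peak of 330 bases in wild type and none in PCGF5-depleted cells. Of 10 early neural markers 6 were marked in both. Pax6, Hes5, Neurog2 and Pou3f2 were covered more in PCGF5-depleted cells, and Zic1 more in wild type, with 734 and 652 bases.

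Markers of other cell types were read for the composition of the cultures. Of 10 primitive endoderm markers, among them Gata4, Gata6 and Sox17, 8 were marked in both and none in a single list. Of 15 fibroblast markers 4 were marked in both, none in wild type alone and 4 in PCGF5-depleted cells alone. The latter were 26.7% of the markers, against 3.43% of all genes. They were Col1a1 with 766 bases, Prrx1 with 555, Col1a2 with 438 and S100a4 with 223. Of the 4 in both lists, Pdgfra, Twist1 and Thy1 were covered more in wild type and Twist2 more in PCGF5-depleted cells. These 4 thus did not differ in a single direction, while the markers found in a single list were all of PCGF5-depleted cells. Among the stronger 50% of peaks, and with a window of 1000 bp, 1 marker was in wild type alone and 3 in PCGF5-depleted cells alone. Both populations were grown on fibroblast feeders. The 7 markers in neither list were Col3a1, Dcn, Fn1, Lum, Pdgfrb, Postn and Vim. Whether the share of feeder chromatin differed between the libraries was not tested.

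A second mark, from other libraries of the same cells, was set beside these classes. H2AK119ub1 of wild type mESCs overlapped 42.7% of the kept wild type H3K27me3 peaks (41.2 to 44.2) and 19.2% of the lost peaks (18.3 to 20.1), a difference of 23.5 percentage points (21.7 to 25.2). It overlapped 8.15% of the gained peaks (7.48 to 8.87). H2AK119ub1 of PCGF5-depleted mESCs overlapped 31.1% of the kept, 10.4% of the lost and 10.1% of the gained peaks. Hence fewer lost than kept peaks carried H2AK119ub1 already in wild type cells. At promoters the wild type H2AK119ub1 shares were 34.9% of kept and 19.3% of lost peaks, and away from promoters 52.3% and 19.1%. Kept peaks were also wider, with a median of 386 bp against 233 bp. The part of width in the difference was not tested. The 1 Mb from 114 to 115 Mb of chromosome 6 was crowded with peaks, 157 in wild type (139 kept) and 156 in PCGF5-depleted mESCs for H3K27me3, and 167 and 133 for H2AK119ub1. Without it, an alternative chosen after the data were seen, the difference over all peaks was 21.8 percentage points.

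By gene, H2AK119ub1 was most frequent where H3K27me3 was in both lists. Of the genes with H3K27me3 in both lists 47.6% (45.5 to 49.7) had H2AK119ub1 in wild type and 40.9% (38.8 to 43.0) in PCGF5-depleted cells. Among genes with H3K27me3 in wild type alone the share was 21.1% in wild type (18.5 to 23.9), or 183 genes, and in PCGF5-depleted cells it was 104 of 867 genes. Among genes with H3K27me3 in PCGF5-depleted cells alone they were 9.96% (8.03 to 12.3) and 14.2% (11.9 to 16.8). Of the 867 wild type genes, 132 had H2AK119ub1 in wild type alone and 53 in PCGF5-depleted cells alone. Of the 763 PCGF5-depleted genes, 52 had it in wild type alone and 84 in PCGF5-depleted cells alone. Where H3K27me3 was listed in a single genotype, H2AK119ub1 was thus listed more often in that genotype, although 631 and 603 of these genes had no H2AK119ub1 in either list. The H2AK119ub1 list was itself shorter in PCGF5-depleted cells, with 7170 peaks against 8672.

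**Figure D5:**
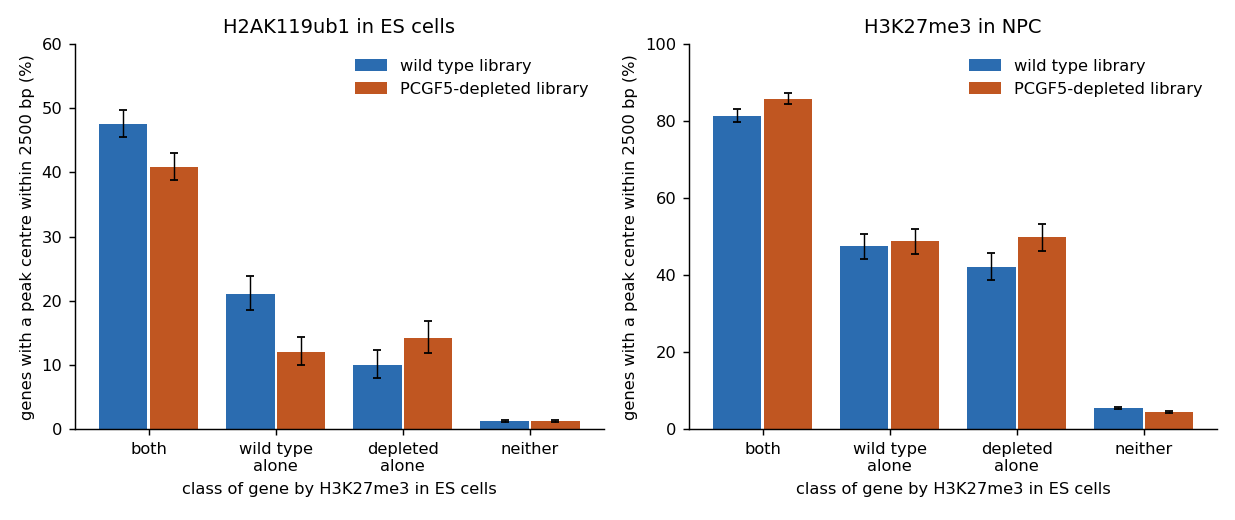
Share of genes (y axis, %, with 95% Wilson intervals) with a peak centre of H2AK119ub1 in mESCs (left) or of H3K27me3 in NPC (right) within 2500 bp of a start site, by whether the gene had H3K27me3 in both mESC lists, in wild type alone, in PCGF5-depleted cells alone or in neither (x axis). Among genes of wild type alone H2AK119ub1 is listed at 183 and 104 of 867 in the wild type and PCGF5-depleted libraries, and among genes of PCGF5-depleted cells alone at 9.96% and 14.2%.

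PCGF5 itself was mapped in mESCs through a Flag tag on the Pcgf5 gene, in a list of 653 peaks. These overlapped 21 kept (0.506%), 21 lost (0.274%) and 8 gained H3K27me3 peaks (0.134%). By gene, 1.09% of those marked in both, 1.15% of those marked in wild type alone (0.628 to 2.11) and 0.917% of those marked in PCGF5-depleted cells alone (0.445 to 1.88) had a Flag-PCGF5 peak, close to the 0.787% of all genes. The intervals of the last 2 shares overlapped, and a difference was not detectable with 10 and 7 genes. Those of wild type alone included Car11, the glutamate receptor gene Grik5 and the kinase gene Camk2b.

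Many genes marked in a single mESC list also had H3K27me3 in NPC. H3K27me3 was listed in wild type NPC at 81.4% of the genes marked in both mESC lists, at 47.5% (44.2 to 50.8) of the genes of wild type alone and at 42.2% (38.7 to 45.7) of the genes of PCGF5-depleted cells alone, against 5.56% of the genes marked in neither. In PCGF5-depleted NPC the shares were 85.8%, 48.8% (45.5 to 52.1), 49.8% (46.3 to 53.3) and 4.44%. With 1 NPC library per genotype the difference between genotypes was not tested. Over the autosomes the share of wild type peaks kept ran from 28.1% on chromosome 1 to 48.9% on chromosome 6, or 38.6% there without the crowded block. On the X chromosome 22 of 116 wild type peaks were kept, and the PCGF5-depleted list held 64 peaks there. The Y chromosome held 15 wild type H3K27me3 peaks and 0 in PCGF5-depleted cells, while the H2AK119ub1 lists held 3 and 9 there.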

How the data were processed

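In all, 7 peak lists were used, H3K27me3 and H2AK119ub1 in wild type and PCGF5-depleted mESCs, Flag-PCGF5 in mESCs, and H3K27me3 in wild type and PCGF5-depleted NPC. Per the labels and the study's methods, the authors trimmed reads (Trimmomatic, those under 36 bp dropped), mapped them to mm9 (Bowtie2) and, after duplicate removal (Picard), ran MACS2 2.1.0 on every library by itself, and the Drosophila spike-in does not enter the lists. The deposited lists give a score, a fold ratio over background and −log10 p and −log10 q-values for each peak, which were used only within a list. Since each list has its own threshold, its length moves with depth, background and fragment length as well as with the mark.

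Overlaps, start sites (GENCODE M1, 22232 protein-coding gene names) and sequences (NCBIM37) were computed with Python 3.11.15, pandas 2.3.3 and pysam 0.24.0. Overlap code was tested on simulated data, and 12 counts were checked against bedtools 2.31.1, of which 0 differed. CpG ratios of start sites used 500 bp windows. Printed windows with UTR bases were passed over (3). Genes were named as up to 4 members per list by covered length, the 12 longest of each list alone, the 10 longest in both and the genes the study examined; of these genes Sox1, and of the neural markers Map2, were not analysed here. Some genes and sequences chosen by these rules are not reported here. The lists of NPC H2AK119ub1 and Flag-PCGF5 and the inputs were not used. Shares carry 95% Wilson and differences Newcombe intervals. The members and the 40 gene lists were chosen with earlier results of these data known. Alternatives were other overlap rules, higher-scoring, equal-length, merged and q-filtered lists, chromosomes 1 to 19 and other promoter windows.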

Additional observations from a re-analysis of the deposited data

Results flagged for a closer look

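Some differences between the genotypes had opposite signs in mESCs and NPC. With 1 library per group these were not tested. As PCGF5-depleted minus wild type, the H3K27me3 peak number differed by -1574 in mESCs and by 3388 in NPC. The total length under peaks did not differ in sign. It was 3.84 Mb in PCGF5-depleted and 4.31 Mb in wild type mESCs, and 8.18 and 9.67 Mb in NPC. Over all genes the number of marked genes was also lower in both, by -104 in mESCs and -45 in NPC. The number of marked genes changed by -10 in mESCs and 2 in NPC for cadherins and protocadherins, by -9 and 5 for integrins, laminins and ADAMTS proteases, by -7 and 5 for solute carriers and by -4 and 1 for olfactory receptors. For nuclear receptors it changed by 4 in mESCs and by -2 in NPC.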

How the results depend on the processing

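No paired analysis was possible because each group had 1 library. Of 58 values of the 7 comparisons under 10 alternatives, 1 of them chosen after the data were seen, 41 stayed within the counting interval of the value reported, or within 1.5 times a gene count, 17 moved beyond it and 0 reversed. With at least 50% of the peak overlapped, 24.5% of wild type and 30.3% of PCGF5-depleted peaks were kept and the promoter difference was 9.42 percentage points. With a peak of the other list within 1000 bp accepted, the shares were 54.2% and 62.1% and the H2AK119ub1 and promoter differences 19.2 and 27.5 points. In the higher-scoring 50% of each list 40.5% of PCGF5-depleted peaks were kept, 1164 genes were marked in both and the promoter difference was 3.96 points. With equal lists the shares kept were 37.7% and 39.0%, with q-values of 0.05 or less 36.1% of wild type peaks were kept, and with merged peaks 36.2%, with differences of 27.5 and 25.5 points. A promoter window of 1000 bp gave a difference of 14.9 points. Of 88 gene list differences 70 stayed within 1.5 times and 0 reversed, and all 34 named genes kept their call except Lrrc23, Trim17 and Abhd8, as given above. In the higher-scoring 50% of each list, 418 of the 867 genes of wild type alone and 369 of the 763 of PCGF5-depleted cells alone were again in that class. Without repeat libraries the differences cannot be set against the spread between libraries of the same cells, and depth and fragment length cannot be told apart from genotype.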
